A study of Homo sapiens with 6 samples.

Results

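The genes described here carry out and control fatty acid synthesis, elongation and desaturation: ACLY, ACACA, FASN, SCD, ELOVL1, ELOVL5, ELOVL6, FADS1, FADS2 and SREBF1. They were chosen by name for their place in the pathway, with earlier results of these data known. They are 10 of the 26485 entries of a table of raw read counts per gene. The counts come from REH cells, an established human cell line of B precursor acute lymphoblastic leukaemia, grown in medium with fetal bovine serum. Cells were given 25 µM ML141, an inhibitor of the small GTPase CDC42, for 24 h (3 libraries), or DMSO, the solvent, for 24 h (3 libraries). All libraries come from this single cell line, with 1 dose and 1 time. The labels do not say whether the libraries of a group came from separate cultures, so p-values measure the spread between these libraries, which may be technical.

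New fatty acids are built in the cytosol from acetyl-CoA, which ACLY makes from citrate. ACACA turns acetyl-CoA into malonyl-CoA, and FASN joins malonyl-CoA units into palmitate with NADPH as the reductant. ELOVL enzymes then lengthen fatty acids in the endoplasmic reticulum, and SCD and the FADS enzymes place double bonds in them. SREBF1 encodes SREBP-1, a transcription factor that is held in the endoplasmic reticulum and, once released, raises transcription of these enzymes; its relative SREBP-2 acts mainly on cholesterol synthesis.

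Of the 10 genes, 7 were lower in ML141 cells than in DMSO cells: ACLY, FASN, ELOVL5, ELOVL6, FADS1, FADS2 and SREBF1. The log2 fold changes of these genes ran between -2.23 for ELOVL6 and -0.75 for ELOVL5, and in each of them all 3 ML141 libraries lay below all 3 DMSO libraries. ELOVL1 and ACACA did not pass the test, and SCD had too few counts to be tested. None was higher. Calls are from edgeR's quasi-likelihood test with Benjamini-Hochberg adjustment over the 11454 genes with enough counts, at a threshold of 0.05. Change was widespread: 54.4% of tested genes passed this threshold, 27.7% lower and 26.7% higher, and in 61.2% the groups did not overlap. Lower calls of more than 2-fold made up 6.24% of tested genes, and 5 of the 9 tested pathway genes were among them. Of these 5, ACLY and SREBF1 lay near the cut, with log2 fold changes of -1.07 and -1.10. With libraries scaled by their totals they were -0.90 and -0.93, short of 2-fold. The median log2 fold change was -1.07 over the 9 tested pathway genes and 0.02 over all tested genes. In bulk RNA, fewer cells of a type and less RNA per cell cannot be told apart.

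Library totals were 10436147, 12308039 and 10860349 counts in ML141 and 8284299, 10319697 and 10837224 counts in DMSO, so 1 count was worth 0.0754 to 0.130 CPM (counts-per-million, with library sizes scaled by TMM). Markers of the B precursor identity of the line were present, with 11 of 12 tested, among them PAX5 and EBF1, and a summed level of 8763 to 9105 CPM in ML141 libraries against 6619 to 7227 CPM in DMSO libraries. Of these markers 9 were higher in ML141 cells and 0 lower, against 26.7% higher and 27.7% lower over all tested genes. VPREB1 had 1 count in all. T cell markers summed to 0 CPM in every ML141 library and to at most 0.0964 CPM in DMSO libraries, with CD3D, CD3G and CD2 at 0. Myeloid markers summed to 32.7 to 36.1 CPM in ML141 and 49.1 to 50.1 CPM in DMSO, most of it MPO. Of 6 markers of adipocytes and hepatocytes, cell types known for high lipogenesis, ADIPOQ, PLIN1, FABP4, LEP and APOB were at 0 and the summed level was 1.20 to 1.51 CPM in ML141 and 0.130 to 0.311 CPM in DMSO, all from ALB. The part of any of these shifts in the results below was not tested.

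**Figure D1:**
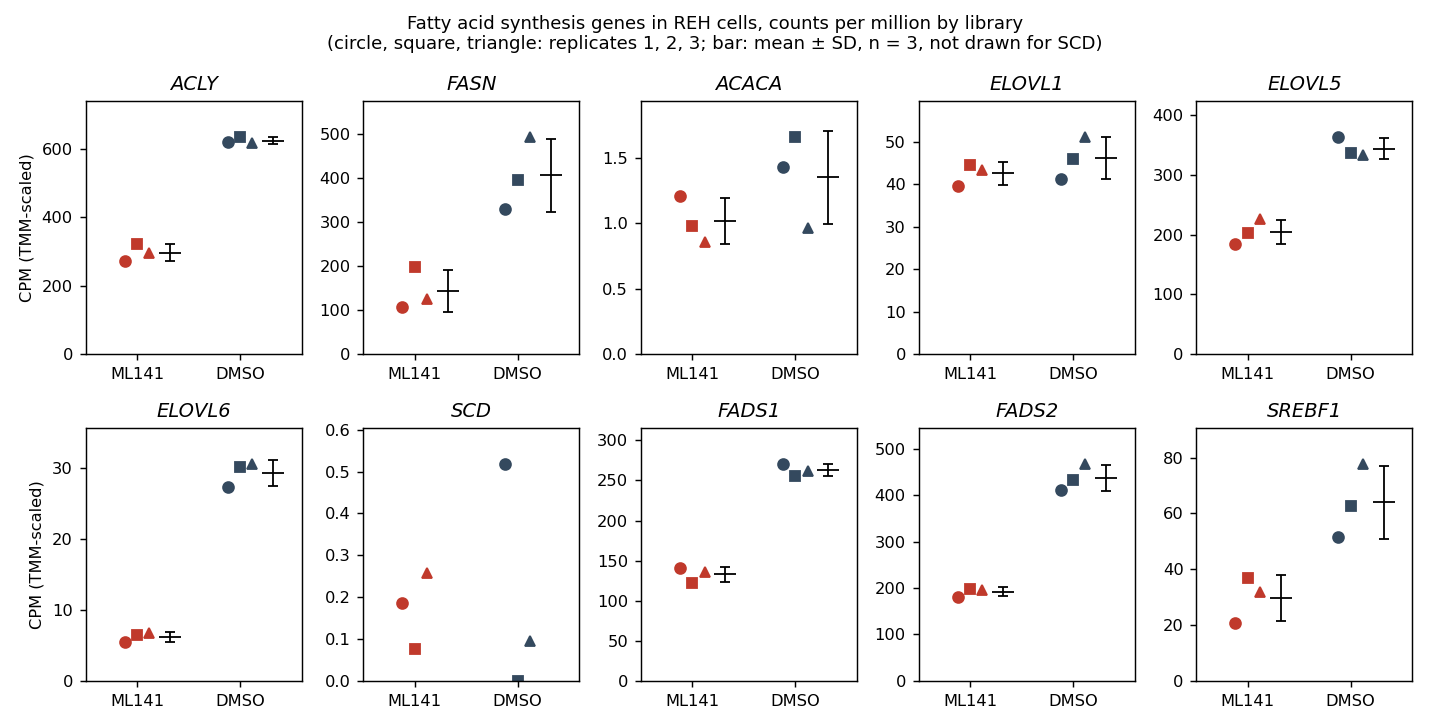
CPM of each of the 10 genes by library, ML141 left and DMSO right; points are libraries and bars are mean ± SD (n = 3), with a separate linear axis from 0 for each gene. ELOVL6 lay between 5.47 and 6.79 CPM in ML141 and between 27.2 and 30.6 CPM in DMSO, whereas the groups overlapped for ELOVL1, ACACA and SCD.

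Promoter windows of 300 bases, 250 before and 50 after an annotated start, were taken from RefSeq (GRCh38.p14) for 9 of the 10 genes; FASN was not among them. They are shown for the gene that fell farthest (ELOVL6), for ACLY and FADS2, which fell with little spread, and for ELOVL1, which did not pass. Windows run 5′ to 3′ on the gene's strand, and capitals mark GGGCGG, the core of an Sp1 element, or CCAAT, the core of an NF-Y element, on either strand (CCGCCC and ATTGG on the other). The windows are ELOVL6 at chr4:110198566-110198865 (minus strand), ACLY at chr17:41918902-41919201 (minus strand), FADS2 at chr11:61816154-61816453 (plus strand) and ELOVL1 at chr1:43367962-43368261 (minus strand).
ELOVL6: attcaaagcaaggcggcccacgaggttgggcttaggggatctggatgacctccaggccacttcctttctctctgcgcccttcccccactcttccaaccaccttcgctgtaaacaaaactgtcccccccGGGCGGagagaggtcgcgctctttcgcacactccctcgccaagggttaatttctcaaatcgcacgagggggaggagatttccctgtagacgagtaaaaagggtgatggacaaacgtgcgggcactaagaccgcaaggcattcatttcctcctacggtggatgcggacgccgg
ACLY: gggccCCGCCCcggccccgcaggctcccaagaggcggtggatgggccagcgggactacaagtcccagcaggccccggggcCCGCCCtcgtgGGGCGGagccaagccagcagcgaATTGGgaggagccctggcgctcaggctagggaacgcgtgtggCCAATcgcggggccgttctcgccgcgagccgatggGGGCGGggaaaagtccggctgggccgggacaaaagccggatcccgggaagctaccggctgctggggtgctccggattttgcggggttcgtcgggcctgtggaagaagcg
FADS2: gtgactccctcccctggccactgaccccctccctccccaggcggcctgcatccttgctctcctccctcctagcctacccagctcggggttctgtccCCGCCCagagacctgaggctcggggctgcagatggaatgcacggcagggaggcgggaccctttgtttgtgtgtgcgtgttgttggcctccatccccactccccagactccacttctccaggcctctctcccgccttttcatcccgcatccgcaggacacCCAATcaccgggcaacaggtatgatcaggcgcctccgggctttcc
ELOVL1: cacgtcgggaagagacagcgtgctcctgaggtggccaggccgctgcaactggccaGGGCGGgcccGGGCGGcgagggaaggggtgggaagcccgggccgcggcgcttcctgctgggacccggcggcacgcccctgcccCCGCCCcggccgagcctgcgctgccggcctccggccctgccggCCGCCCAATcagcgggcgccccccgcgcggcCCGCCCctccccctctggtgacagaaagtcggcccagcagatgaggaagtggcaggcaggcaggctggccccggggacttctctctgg

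Over all windows of these genes, CCAAT was found in 6 of 9 genes and GGGCGG in 8 of 9, against 34.6% and 45.0% of 35116 human promoter windows. A gene was counted if any of its windows held a match, while the percentages are per window. ACLY, ACACA and FADS2 had several windows each, so the figures are not in like units. The windows shown of ELOVL1, ACLY and FADS2 held both, and in ELOVL1 the CCAAT shares bases with a CCGCCC, while ELOVL6 held 1 GGGCGG and no CCAAT. These letters were thus present in genes that fell and in ELOVL1. TCACNCCAC, the core of a sterol regulatory element, was found in 0 of 9 genes and in 1.13% of all windows, and CACGTG, an E-box, in ELOVL5 alone of the 9 and in 7.26% of all windows. Genes with several annotated starts had several windows; the other FADS2 window, at chr11:61815953-61816252, held neither CCAAT nor GGGCGG. A match is a run of letters and no test of binding. Only these strings were searched, so a missing match does not show that an element is absent.

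ACLY (chr17:41866908-41930542, GRCh38, minus strand) had 272.7, 321.1 and 295.0 CPM in ML141 libraries, against 619.7, 634.7 and 615.8 CPM in DMSO libraries. The groups were far apart, and the DMSO libraries were nearly equal. The mean was 296.3 ± 24.2 CPM in ML141 and 623.4 ± 9.97 CPM in DMSO (SD, n = 3 each), a log2 fold change of -1.07 (SE 0.0815, adjusted p = 9.82e-07) or 2.10-fold lower. The antisense gene AC125257.2 covers 3.56% of its exon bases.

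ACLY's supply partners moved the same way in part. Of 7 tested genes that export citrate or make cytosolic acetyl-CoA and NADPH, 4 were lower, 0 higher and 3 did not pass, with a median log2 fold change of -0.79. Over all tested genes 54.4% passed, 27.7% lower and 26.7% higher, which is also the scale for the list counts below. SLC25A1, the mitochondrial citrate carrier that feeds ACLY, fell by 0.90 on the log2 scale (SE 0.144, adjusted p = 2.58e-04), with 42.4 ± 8.22 CPM in ML141 and 79.0 ± 10.3 CPM in DMSO. PGD, an NADPH-producing enzyme of the pentose phosphate pathway, had a log2 fold change of -0.81, and MDH1, cytosolic malate dehydrogenase, -0.81. IDH1, ACSS2 and PGLS did not pass.

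FASN (chr17:82078333-82098332, minus strand) had 107.5, 197.7 and 126.1 CPM in ML141 libraries, against 329.1, 396.9 and 493.9 CPM in DMSO libraries. The groups did not overlap, but the libraries within each group were spread more widely than those of ACLY. The mean was 143.8 ± 47.7 CPM in ML141 and 406.6 ± 82.9 CPM in DMSO (SD, n = 3 each), 2.83-fold lower, with a log2 fold change of -1.50 (SE 0.200, adjusted p = 6.49e-05).

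ACACA (chr17:37084988-37406818, minus strand), the rate-limiting carboxylase, had few counts. It had 13, 13 and 10 counts in ML141 libraries and 11, 16 and 10 counts in DMSO libraries, or 1.02 ± 0.175 CPM in ML141 and 1.35 ± 0.353 CPM in DMSO (SD, n = 3 each). The groups overlapped, and the log2 fold change of -0.40 (SE 0.340, adjusted p = 0.338) did not pass. The summed counts gave a ratio of 0.756 for ML141 over DMSO, with an exact 95% interval of 0.464 to 1.23 that covers counting error only. That interval holds both no change and a fall as large as that of ACLY, whose summed counts gave a ratio of 0.478.

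Counts were sparse around ACACA as well. Of 30 other protein-coding genes with a start or end within 1 Mb, 23 (76.7%) had 0 counts in all 6 libraries, against 27.1% of all 18553 protein-coding genes in the table. Genes at 0 there included AATF, GGNBP2, PIGW, SYNRG and ZNHIT3, named here after their values were seen, while DDX52 had 606 counts over the 6 libraries and TADA2A had 123. SCD lay among well-counted neighbours, of which 5 of 30 (16.7%) were at 0; ERLIN1, CHUK and NDUFB8 had 4205, 4779 and 4448 counts. Genes around ACLY were often at 0 as well, 58 of 100, although ACLY itself was well counted. How reads that align to more than one sequence were counted is not stated, so the few counts of ACACA may not give its level in these cells, and their ratio holds only for the reads that were counted; whether such reads were lost was not tested.

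**Figure D2:**
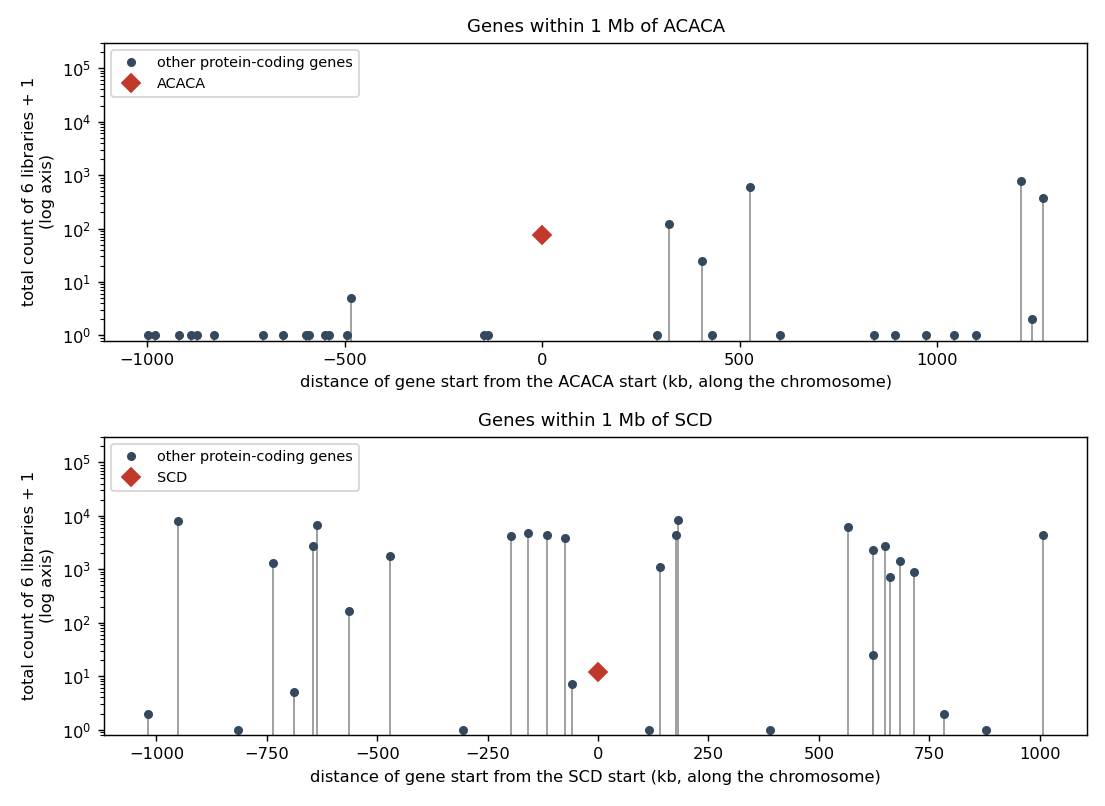
Total counts over the 6 libraries, plus 1, of ACACA (top) and SCD (bottom) and of other protein-coding genes within 1 Mb, on a log axis, by distance between gene starts in kb. Most neighbours of ACACA sat at 0 counts (23 of 30), whereas 5 of 30 neighbours of SCD did.

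Among 5 tested partners of the carboxylase step, 2 were higher, 0 lower and 3 did not pass, with a median log2 fold change of 0.13. HLCS, which attaches biotin to carboxylases, had 70.6 ± 5.07 CPM in ML141 and 31.9 ± 2.01 CPM in DMSO, a log2 fold change of 1.15 (SE 0.101, adjusted p = 2.88e-06). MID1IP1, which promotes acetyl-CoA carboxylase polymerisation, had a log2 fold change of 0.65 (SE 0.0875, adjusted p = 6.84e-05). ACACB, the mitochondria-associated carboxylase, had 5.28, 10.6 and 9.11 CPM in ML141 libraries and 8.04, 7.67 and 7.33 CPM in DMSO libraries, which overlapped (log2 fold change 0.13, SE 0.232, adjusted p = 0.650). PRKAA1, a catalytic subunit of the AMP-activated kinase that inhibits the carboxylases, had a log2 fold change of 0.04 and did not pass.

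The 3 elongases had unlike fold changes. ELOVL6 (chr4:110045846-110199199, minus strand), which lengthens palmitate to stearate, had 5.47, 6.41 and 6.79 CPM in ML141 libraries, against 27.2, 30.2 and 30.6 CPM in DMSO libraries. The highest ML141 library was far below the lowest DMSO library. The mean was 6.22 ± 0.683 CPM in ML141 and 29.3 ± 1.82 CPM in DMSO (SD, n = 3 each), 4.70-fold lower, with a log2 fold change of -2.23 (SE 0.139, adjusted p = 2.57e-07); 48 tested genes, 0.419%, had a log2 fold change at least this low.

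ELOVL5 (chr6:53267398-53349179, minus strand), which lengthens polyunsaturated fatty acids, had 184.5, 202.8 and 226.0 CPM in ML141 libraries, against 363.8, 336.4 and 333.0 CPM in DMSO libraries. The groups did not overlap, and the fall was the smallest of the 7. The log2 fold change was -0.75 (SE 0.0889, adjusted p = 2.57e-05), 1.68-fold lower, with means of 204.4 ± 20.8 CPM in ML141 and 344.4 ± 16.9 CPM in DMSO (SD, n = 3 each).

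ELOVL1 (chr1:43363397-43368074, minus strand), which makes saturated and monounsaturated very-long-chain fatty acids for sphingolipids, had 39.6, 44.6 and 43.4 CPM in ML141 libraries and 41.2, 45.8 and 51.1 CPM in DMSO libraries. The groups overlapped. The log2 fold change of -0.12 (SE 0.109, adjusted p = 0.382) did not pass, and it was 0.06 when libraries were scaled by their totals.

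Within a library, the log2 ratio of ELOVL6 to ELOVL1 averaged -2.78 ± 0.0914 in ML141 and -0.65 ± 0.0813 in DMSO, and that of ELOVL6 to ELOVL5 averaged -5.04 ± 0.0493 in ML141 and -3.56 ± 0.161 in DMSO (SD, n = 3 each). The ratio of ELOVL5 to ELOVL1 averaged 2.26 ± 0.103 in ML141 and 2.91 ± 0.220 in DMSO. These ratios need no scaling between libraries, and in all 3 the groups did not overlap. In the exact permutation test each gave p = 0.1, the smallest that 3 libraries against 3 allow, and an adjusted p of 0.15 over the 6 ratios computed, so none could pass the threshold.

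Of 7 other tested genes of elongation, 5 were lower, 0 higher and 2 did not pass, with a median log2 fold change of -0.52. ELOVL7, an elongase of long saturated fatty acids, had a log2 fold change of -1.08 (SE 0.213, adjusted p = 1.12e-03) at low levels, 3.13 ± 0.603 CPM in ML141 and 6.68 ± 0.840 CPM in DMSO. ELOVL2, which acts on polyunsaturated fatty acids after ELOVL5, fell by 0.74 on the log2 scale. HACD2 and TECR, a dehydratase and the last reductase of the elongation cycle, had log2 fold changes of -0.52 and -0.53. ELOVL3 and ELOVL4 were at 0 counts in all libraries.

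FADS1 and FADS2 encode the front-end desaturases of polyunsaturated fatty acid synthesis and lie on opposite strands of chromosome 11. FADS2 (chr11:61792980-61867354, plus strand), which acts first, had 180.3, 198.3 and 196.5 CPM in ML141 libraries, against 410.9, 433.4 and 467.3 CPM in DMSO libraries. FADS1 (chr11:61799625-61829318, minus strand), which acts later in the chain, had 140.4, 122.1 and 135.6 CPM in ML141 libraries, against 270.7, 255.5 and 261.4 CPM in DMSO libraries. In both genes the groups stood well apart with little spread inside either. FADS2 fell by 1.19 on the log2 scale (SE 0.0816, adjusted p = 4.83e-07) and FADS1 by 0.98 (SE 0.0809, adjusted p = 1.72e-06), or 2.28-fold and 1.98-fold.

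The log2 ratio of FADS2 to FADS1 within a library averaged 0.53 ± 0.170 in ML141 and 0.73 ± 0.121 in DMSO, and the groups overlapped (difference -0.20, exact permutation p = 0.2, adjusted p = 0.2). The exons of the genes share 142 bases, 1.80% of the FADS1 exon bases and 2.85% of those of FADS2. The library kit does not mark strand, so reads from those bases cannot be told apart.

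SCD (chr10:100347124-100364834, plus strand), the desaturase that turns stearate into oleate, was nearly undetected. It had 2, 1 and 3 counts in ML141 libraries and 4, 0 and 1 counts in DMSO libraries, at or near the 0.226 to 0.389 CPM that 3 counts make. The summed counts were 6 in ML141 and 5 in DMSO, a ratio of 0.933 with an exact 95% interval of 0.237 to 3.86, so a difference was not detectable at this depth.

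The related desaturase SCD5 had 34.3, 44.0 and 44.0 CPM in ML141 libraries, against 85.4, 73.1 and 78.6 CPM in DMSO libraries, which did not overlap. Its log2 fold change was -0.95 (SE 0.116, adjusted p = 3.26e-05). Among 9 tested genes of other desaturases and their electron carriers, 4 were lower, 2 higher and 3 did not pass, with a median log2 fold change of -0.11. DEGS1, which desaturates dihydroceramide, and the electron carriers CYB5B and CYB5A had log2 fold changes of -0.98, -1.02 and -0.64. Of the CYB5B exon bases 55.6% overlap AC026464.2 on the same strand, so its count may be split.

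FADS3, the neighbour of FADS2 on chromosome 11, went the other way. It had 19.6, 26.6 and 28.7 CPM in ML141 libraries, against 11.4, 10.8 and 15.6 CPM in DMSO libraries. Its log2 fold change was 0.98 (SE 0.181, adjusted p = 6.90e-04), so within this gene cluster FADS1 and FADS2 were lower and FADS3 higher. CYB5R1, a reductase related to the one that feeds electrons to cytochrome b5, was also higher, with a log2 fold change of 0.51.

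SREBF1 (chr17:17810399-17837002, minus strand) had 20.8, 36.9 and 31.7 CPM in ML141 libraries, against 51.7, 62.7 and 77.8 CPM in DMSO libraries. The groups did not overlap, with a wide spread in each. The mean was 29.8 ± 8.19 CPM in ML141 and 64.1 ± 13.1 CPM in DMSO (SD, n = 3 each), 2.15-fold lower, with a log2 fold change of -1.10 (SE 0.192, adjusted p = 4.75e-04). These counts do not separate the transcript forms of SREBF1, and processing of its protein was not measured.

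Of 16 other tested genes of SREBP processing and lipogenic transcription, 6 were higher, 4 lower and 6 did not pass, with a median log2 fold change of 0.23; without DMSO replicate 2, 6 genes passed in place of 10. INSIG1, which retains SREBPs in the endoplasmic reticulum and is itself an SREBP target, had 126.5, 93.4 and 131.9 CPM in ML141 libraries, against 369.9, 323.2 and 384.5 CPM in DMSO libraries (log2 fold change -1.62, SE 0.124, adjusted p = 1.07e-06). SREBF2, which encodes SREBP-2, fell by 0.39 on the log2 scale (SE 0.0810, adjusted p = 1.65e-03), less than SREBF1 did in this fit; the difference between them was not tested. SCAP, the escort of SREBPs, had a log2 fold change of 0.28 (adjusted p = 0.0436), the protease MBTPS2 0.29 (adjusted p = 0.0768) and the protease MBTPS1 0.10 (adjusted p = 0.317). The calls of SCAP and MBTPS2 depend on the processing: over 15 alternatives SCAP did not pass in 7 (adjusted p 0.00520 to 0.193 over all), among them leaving out any DMSO library, ML141 replicate 2 or ML141 replicate 3, and MBTPS2 passed in 7 (adjusted p 0.00282 to 0.271 over all). MLXIP, a glucose-responsive factor, and NR1H2, the liver X receptor LXR-beta, were higher, with log2 fold changes of 1.20 and 0.91.

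Of 4 tested targets of liver X receptors, 2 were higher, 1 lower and 1 did not pass. ABCA1, the cholesterol exporter, had a log2 fold change of 0.91, MYLIP 0.37 (adjusted p = 0.0405) and LPCAT3 -0.86. The gene that did not pass, NR1H3, is also counted in the SREBP list above. MYLIP did not pass in 5 of 15 alternatives (adjusted p 0.00551 to 0.192 over all): the DESeq2 Wald test, and without DMSO replicate 1, DMSO replicate 2, ML141 replicate 2 or ML141 replicate 3. LPCAT3 shares 66.4% of its exon bases with EMG1 on the opposite strand, so its count is uncertain. In sterol synthesis and uptake 18 of 21 tested genes were lower and 0 higher, with a median log2 fold change of -1.27; HMGCS1, an early enzyme of the mevalonate pathway, had 97.4 ± 3.87 CPM in ML141 and 511.7 ± 25.4 CPM in DMSO (log2 fold change -2.39).

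The steps that use the new fatty acids were also read. Of 7 tested acyl-CoA synthetases and acyl-CoA or fatty acid binding proteins, 5 were lower, 0 higher and 2 did not pass, with a median log2 fold change of -0.77. FABP5, a fatty acid binding protein, had 10.3 ± 0.620 CPM in ML141 and 50.7 ± 4.12 CPM in DMSO, a log2 fold change of -2.30 (SE 0.119, adjusted p = 8.20e-08). DBI, the acyl-CoA binding protein, fell by 1.72 on the log2 scale, and ACSL1 and ACSL3, which activate long-chain fatty acids, by 0.85 and 0.77. Of 7 tested genes of glycerolipid assembly, 3 were lower, 1 higher and 3 did not pass. LPIN1, a phosphatidate phosphatase, had a log2 fold change of 0.82 and the acyltransferase AGPAT5 -0.85. AGPAT2, another acyltransferase, had -0.44 (adjusted p = 0.0196) and did not pass in 5 of 15 alternatives (adjusted p 0.000738 to 0.145 over all), which were upper-quartile factors, library totals, and leaving out DMSO replicate 2, DMSO replicate 3 or ML141 replicate 3.

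Mitochondria make fatty acids by a separate set of enzymes. Of 8 tested genes of that route and of the lipoate synthesis it feeds, 3 were higher, 2 lower and 3 did not pass, with a median log2 fold change of 0.13. NDUFAB1, the mitochondrial acyl carrier protein, had a log2 fold change of -0.78 and MCAT, the malonyl transferase, -0.51, while LIAS and LIPT1, of lipoate synthesis and transfer, had 0.49 and 0.44. Leaving out DMSO replicate 3 left 2 of these calls, and leaving out ML141 replicate 3 left 3. Counts are uncertain where exons overlap another annotated gene. They do so over 12.6% of LIPT1, 19.9% of HMGCS1, 10.1% of MDH1 and 7.72% of LIAS, there with RPL9 on the opposite strand.

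Levels were compared between genes per kb of exon. ACLY stood highest, with 67.7 ± 5.53 CPM per kb in ML141 and 142.4 ± 2.28 CPM per kb in DMSO, the 97.0th percentile of tested genes in DMSO. In DMSO the order below ACLY was ELOVL5 (98.8), FADS2 (87.8), FASN (47.5), FADS1 (33.2), ELOVL1 (25.8), SREBF1 (14.3) and ELOVL6 (4.42 CPM per kb), and no neighbours in this order overlapped between libraries. In ML141 the order below ACLY was ELOVL5 (58.7), FADS2 (38.5), ELOVL1 (23.8), FASN and FADS1 (16.8 each), SREBF1 (6.63) and ELOVL6 (0.938 CPM per kb). In ML141 the libraries of ACLY and ELOVL5 overlapped, as did those of FASN with ELOVL1 and FADS1. ELOVL1, among the lower of these genes in DMSO, thus stood above FASN and FADS1 in the ML141 means. With the length of the longest transcript, FADS1 stood above FASN in DMSO, at 58.0 against 47.5 CPM per kb, and above ELOVL1 in ML141, at 29.3 against 26.2 CPM per kb.

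FASN and SREBF1 had the widest spread among the libraries of a group of the 7 genes that fell. As log2 deviations from their group mean, FASN was at -0.37, 0.51 and -0.14 in ML141 replicates 1, 2 and 3 and at -0.29, -0.01 and 0.30 in DMSO replicates 1, 2 and 3. SREBF1 was at -0.48, 0.35 and 0.13 in ML141 and at -0.29, -0.01 and 0.30 in DMSO. ACLY stayed within 0.12 of its ML141 mean and within 0.03 of its DMSO mean.

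The longest transcript of FASN holds 65.3% G and C, the 97.5th percentile of tested genes, and that of SREBF1 62.8%, the 93.5th percentile. In the tenth of tested genes with most G and C, the median deviation was -0.20, 0.20 and -0.001 in ML141 replicates 1, 2 and 3 and -0.17, 0.01 and 0.17 in DMSO replicates 1, 2 and 3. With offsets for GC content and length in the fit, an alternative chosen after seeing the data, the log2 fold changes were -1.74 for FASN (adjusted p = 5.55e-09) and -1.26 for SREBF1 (adjusted p = 4.03e-07). The offsets were fitted over all 6 libraries, so they also remove any GC- or length-related difference between ML141 and DMSO. They thus do not correct for the spread within groups alone. The longest ELOVL6 transcript holds 41.2%, the 22.6th percentile.

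**Figure D3:**
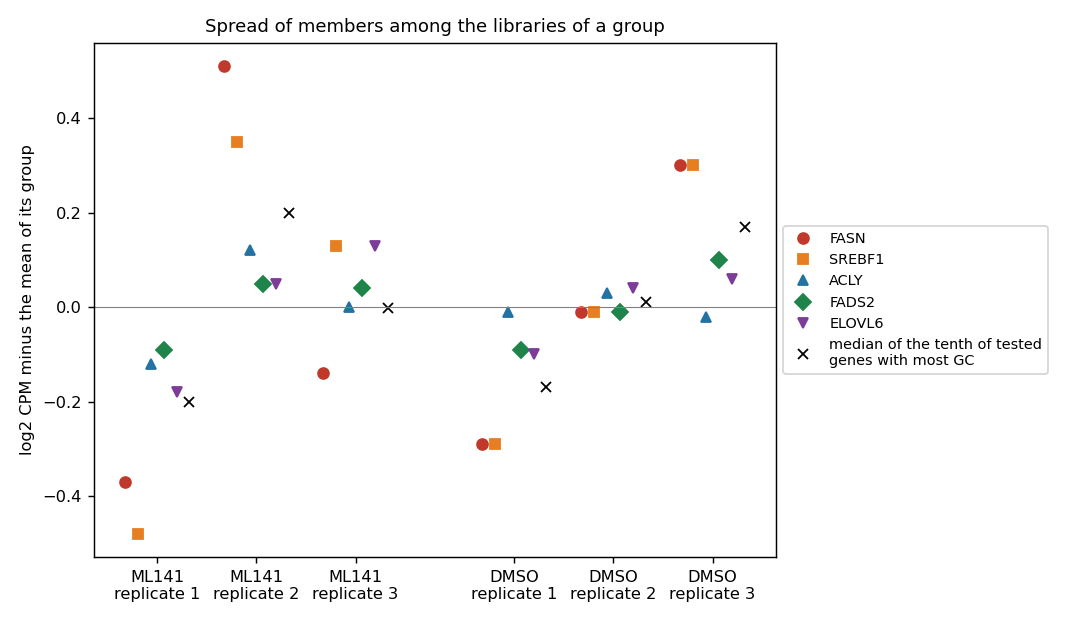
Log2 CPM minus the mean of its group (y axis) in each library (x axis, ML141 left, DMSO right) for 5 pathway genes and, as crosses, the median over the tenth of tested genes with most G and C. FASN and SREBF1 spread from -0.48 to 0.51, farther than ACLY, FADS2 and ELOVL6.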

How the data were processed

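The 6 REH libraries were made with the TruSeq RNA v2 kit (labels' protocols), which does not mark strand. The authors deposited raw counts, whole numbers for each gene symbol. The genome build hg38 and the programs featureCounts, Bowtie2, Picard, Trimmomatic, DESeq2 and bcl2fastq 2.19 are named, per the submitters' processing notes, without roles or settings. Bowtie2 leaves reads unsplit at introns, and how multi-mapping reads were counted is not stated, which bears on genes with close copies. The deposited table also holds normalized scores, mean signal values, a fold ratio, a log2 fold change and p-values of the authors' own comparison; no result here uses them. Library totals are given in the report; intervals and floors cover counting error only.

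Groups and replicate numbers came from sample titles. Genes were kept with filterByExpr (minimum count 10, minimum total 15), scaled with TMM and tested with edgeR 4.0.16 (glmQLFit, glmQLFTest; R 4.3.3). The model held treatment alone, over all 6 libraries; tests were 2-sided and p-values were adjusted by Benjamini-Hochberg. A standard error is the log2 fold change over the square root of F, and CPM use TMM-scaled sizes. Within-library ratios were tested by exact permutation, 2-sided. Exon lengths, overlaps and positions came from GENCODE 29 basic annotation (GRCh38, equal to hg38), and promoter windows from RefSeq. GC content was that of the longest transcript sequence of each gene in GENCODE 29. The test was checked on simulated counts with far fewer changed genes than were called here. Its scaling and false calls under change this widespread were not checked.

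The 10 genes and the related lists were chosen with earlier results of these data known. In each related list, names came from the 4 tested genes with the smallest p and up to 2 that passed against the majority. Not all of these are named, and of the sterol list only HMGCS1 is. Any gene of the SREBP list could be named, and other names were chosen after their values were seen. Some genes counted in a list are not reported here by name. Alternatives were other scalings (DESeq2 1.42.0 size factors, upper quartile, library totals), other filters, the DESeq2 Wald test, limma-voom (limma 3.58.1), a replicate block, each library left out, other lengths, and, added after seeing the data, GC and length offsets and a count of calls of more than 2-fold.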

Additional observations from a re-analysis of the deposited data

How the results depend on the processing

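ACLY, FASN, ELOVL5, ELOVL6, FADS1, FADS2 and SREBF1 stayed lower and past the threshold in each of 15 alternatives, with log2 fold changes of -2.30 to -2.06 for ELOVL6, -1.80 to -1.32 for FASN and -1.29 to -0.91 for SREBF1. With library totals the median of all tested genes moved to 0.19 and 66.1% of calls were higher, and with upper-quartile factors 0.12 and 59.5%, against 49.1% with TMM. ELOVL1 was 0.06 with library totals (adjusted p = 0.691; adjusted p 0.195 to 0.923 over all alternatives). ACACB was -0.02 with GC and length offsets and between -0.08 and 0.37 with a library left out, and NR1H3 between -0.01 and 0.32; neither passed. With a library left out, mitochondrial fatty acid synthesis held 2 to 5 changed genes (5 with all libraries) and the SREBP list 6 to 10 (10 with all; 6 without DMSO replicate 2). Counting only calls of more than 2-fold left 1489 of 6230 genes. With the longest transcript as length, levels moved to 26.2 CPM per kb for ELOVL1 in ML141, to 66.3 in ML141 and 111.8 in DMSO for ELOVL5, and to 29.3 in ML141 and 58.0 in DMSO for FADS1. As deviations from their group means over tested genes, same-numbered ML141 and DMSO libraries correlated at 0.374, 0.0847 and 0.178 for replicates 1, 2 and 3. All were positive, but ML141 replicate 2 correlated best with DMSO replicate 3. The sample descriptions share a name within each number but do not say that it marks a culture, day or batch. Whether the numbers pair samples is thus not known, and the main fit did not use them. A replicate block gave 6979 calls against 6230 and the same 7 pathway genes. In that fit adjusted p was 4.97e-08 for FASN and 5.07e-07 for SREBF1, and MBTPS2, INSIG2 and NFYA passed (adjusted p = 0.0228, 0.0253 and 0.0448). The causes of these shifts were not tested. SCD and ACACA had too few counts for a narrow interval.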
